A study of Rattus norvegicus with 6 samples.

Results

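The long-chain acyl-CoA synthetases are the enzymes Acsl1, Acsl3, Acsl4, Acsl5 and Acsl6, and their transcripts were followed here in the dorsolateral prostate of the rat. Members were all probe sets annotated to these 5 genes, 5 of the 4736 genes named on the array, which gave 12 of its 8799 probe sets. Acsl1 had 4 of them, Acsl4 had 3, Acsl3 and Acsl5 had 2 each and Acsl6 had 1. The family was chosen by the intensities of Acsl1 and Acsl3 in these same arrays, whose diet differences were already known. The diet differences of the members are therefore given as a description, with no test.

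Tissue came from male ACI rats, an inbred strain, 3 fed much corn oil and 3 fed little over 18 months. Linoleic acid, an omega-6 fatty acid, is the main fatty acid of corn oil, and the low corn oil rats are the control group. The labels give an age of 18 months, which equals the feeding time, and no genotype or further treatment. Each rat had 1 array, so replicates were separate animals. The free-text description of high corn oil replicate 3 names the low diet, whereas its title and source name place it in the high group, where it was kept. Values are intensities on a linear scale, scaled to a common trimmed mean of 2503 or 2504 per array. Between 18.6% and 23.1% of an array's values lay at or below 0, so a low intensity cannot be called present or absent. Signals of MAS5, the algorithm the submitters name, normally lie above 0, so the exact algorithm behind these intensities is unknown.

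Long-chain fatty acids enter metabolism only after they are joined to coenzyme A at the expense of ATP, the step that acyl-CoA synthetases catalyse. The products feed beta-oxidation, the synthesis of triglycerides and phospholipids, and protein acylation. Acsl1 is the main form of liver, heart and fat and a classical target of the peroxisome proliferator-activated receptors (PPARs). Acsl3 sits on the endoplasmic reticulum and on lipid droplets and is known as an androgen-responsive gene in prostate cancer cells. Acsl4 prefers arachidonic acid, Acsl5 is found on mitochondria and endoplasmic reticulum, and Acsl6 is best known from brain.

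The windows before the Acsl1 and Acsl3 start sites are printed because these genes had the largest diet differences of the family. Sequences are from RefSeq on GRCr8, 250 bases before the start, read 5′ to 3′ on the strand of the gene. Acsl1 lies on the minus strand, at chr16:52532393-52532642, and Acsl3 on the plus strand, at chr9:87563351-87563600. Capitals mark the CCAAT box, which in Acsl1 reads on the opposite strand.
Acsl1: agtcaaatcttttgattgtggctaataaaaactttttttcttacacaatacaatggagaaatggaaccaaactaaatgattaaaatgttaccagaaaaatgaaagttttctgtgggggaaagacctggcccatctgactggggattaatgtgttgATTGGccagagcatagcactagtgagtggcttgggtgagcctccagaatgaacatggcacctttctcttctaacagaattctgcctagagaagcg
Acsl3: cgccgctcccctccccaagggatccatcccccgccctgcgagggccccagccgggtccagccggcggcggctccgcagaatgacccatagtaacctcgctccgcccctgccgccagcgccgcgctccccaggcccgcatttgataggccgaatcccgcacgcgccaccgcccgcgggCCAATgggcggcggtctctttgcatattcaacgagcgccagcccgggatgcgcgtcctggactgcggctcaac

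All 5 members were matched to a promoter, and 300 bases per promoter were searched on both strands, 250 before and 50 after the start. The PPAR element, AGGTCA repeated after a gap of 1 base, was in 0 of the 5 windows and in 0.0538% of all 33469 promoters. A single AGGTCA, which also lies within the element, was in 0 of the 5 and in 16.2% of all promoters. The letters CCAAT, searched after the sequences had been seen, were in 2 of the 5, Acsl1 and Acsl3, and in 37.5% of all promoters. Also searched were GGGCGG, in 3 of the 5 and 33.1% of all promoters, and TATAAA, in 1 of the 5 and 14.2%. The CCAAT box began 95 bases before the start in Acsl1 and 73 bases before it in Acsl3. The windows of the pair differ in composition, with 72.4% G and C in Acsl3 and the lowest share of the 5 members in Acsl1, below the median of 51.2% over all promoters. A match is a description of these letters and not a binding site, and a missing match covers these windows alone.

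Of the 12 member probe sets, 9 had a mean of at least 343 units over the 6 arrays and entered the fit across 5244 probe sets. The other 3 were at or near 0, namely 1 for Acsl3, 1 for Acsl4 and the single one for Acsl6. Differences are given on the scale of log2(intensity + 156.1), with values below 0 set to 0, as high minus low corn oil. This scale understates the difference of dim probe sets. Probe sets differ in how strongly they bind, so levels are compared between arrays and never between probe sets. In this bulk tissue, fewer cells of a type and less RNA per cell cannot be told apart.

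Acsl1 was higher under the high corn oil diet in all 4 of its probe sets, by 0.34 to 1.07 with a median of 0.73. For rc_AA893242_at that direction depended on which arrays were compared. Probe set D90109_at read 3874, 5518 and 4044 in rats fed much corn oil and 2586, 3028 and 2992 in the controls. Its groups did not overlap, with means of 4479 ± 904 (SD, n = 3) and 2868 ± 246, a ratio of 1.56. The log2 difference was 0.60 ± 0.18 (SE). The highest array was high corn oil replicate 2.

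A second Acsl1 probe set, rc_AI044900_s_at, read 3206, 4978 and 4381 in the high corn oil arrays against 2200.3, 1789 and 1696 in the low ones. In the array maker's naming the ending _s_at marks probes that can match more than 1 transcript. Its means were 4188 ± 901 and 1895 ± 268, a ratio of 2.21. The log2 difference of 1.07 ± 0.21 (SE) was the largest of the 9, and the lowest high corn oil array was 1.46 times the highest low corn oil array.

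The other Acsl1 probe sets were made from a single expressed sequence tag and so share their source. One of them, rc_AA893242_g_at, read 837, 995 and 1103 in rats fed much corn oil and 685, 340.3 and 429 in the controls. Its groups did not overlap, and the log2 difference was 0.85 ± 0.28 (SE). The companion rc_AA893242_at read 827, 1701 and 2165 in the former and 1225, 875 and 1297 in the controls. Here high corn oil replicate 1 was the lowest of all 6 arrays and the groups overlapped, so the log2 difference of 0.34 was as large as its SE of 0.34. Without high corn oil replicate 1 that difference was 0.70, and without high corn oil replicate 3 it was 0.08. Without low corn oil replicate 2 it was 0.19. Had high corn oil replicate 3 belonged to the low diet, as its description has it, the difference would be -0.13.

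**Figure D1:**
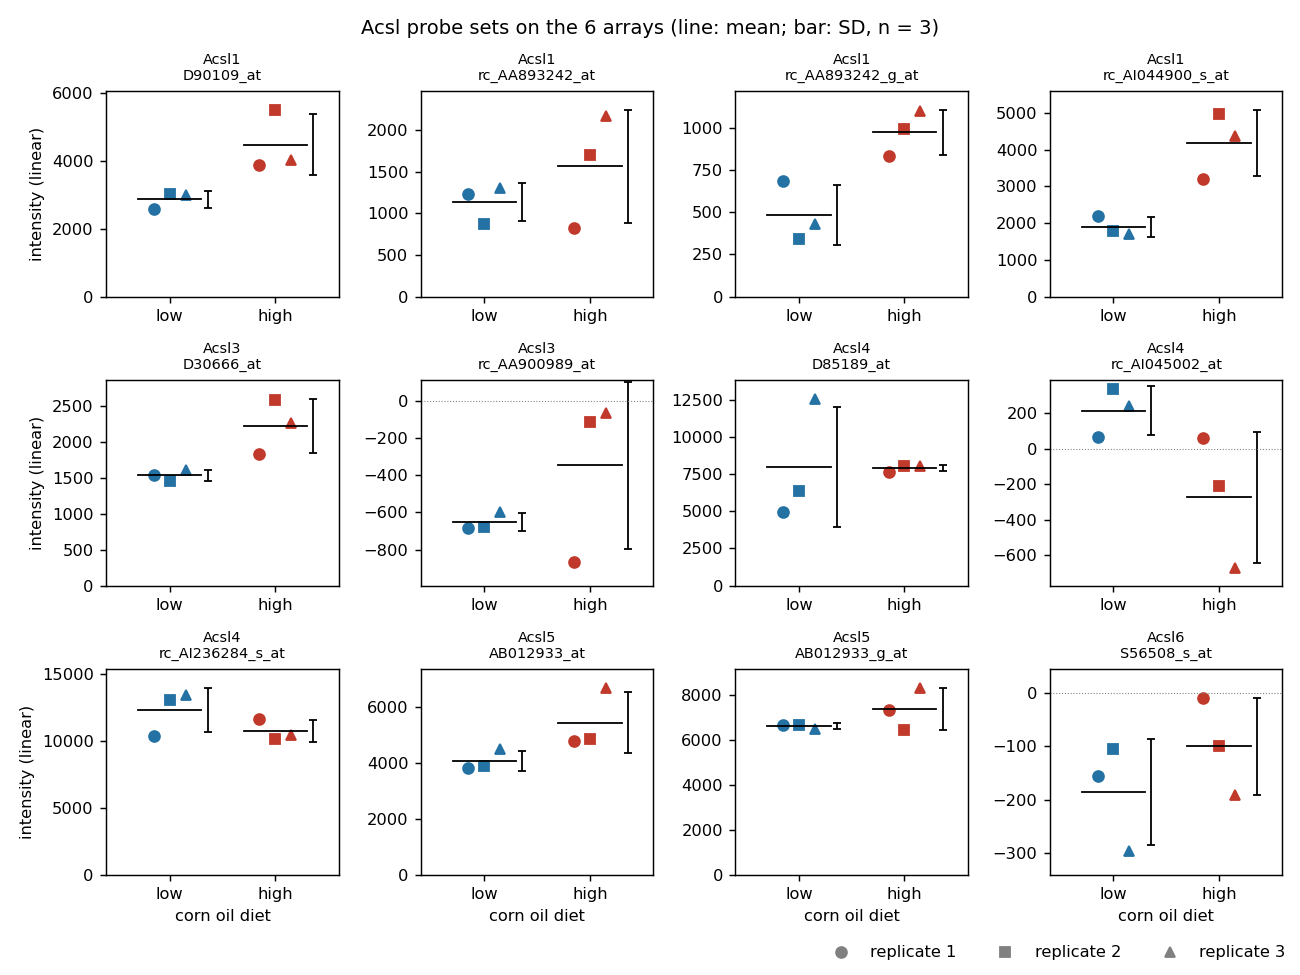
Intensity (linear units) of each of the 12 Acsl probe sets on the 6 arrays, by diet; points are arrays with the marker giving the replicate, the line is the mean and the bar the SD (n = 3). The high corn oil points lie above all low corn oil points in 3 of 4 Acsl1 probe sets, in Acsl3 D30666_at and in Acsl5 AB012933_at, while 3 panels lie around or below 0.

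The 4 Acsl1 probe sets shared a direction but not an array order. Pearson correlations of their log2 values over the 6 arrays ran from 0.45 to 0.93 in 6 pairs, highest between rc_AA893242_g_at and rc_AI044900_s_at. The probe sets share the RNA of each array, so these are descriptions. With the diet means removed, the 6 correlations ran from -0.27 to 0.72. Averaged over its 4 probe sets, as a log2 deviation from the mean of the controls, Acsl1 was at 0.36, 0.92 and 0.88 in high corn oil replicates 1, 2 and 3. The controls were at 0.15, -0.16 and 0.00. High corn oil replicate 1 was thus the high array nearest to the low group.

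Acsl3 was measured by 1 probe set above the floor, D30666_at, which read 1829, 2584 and 2269 under the high diet. Under the low diet it read 1545, 1453 and 1613. The groups did not overlap, with means of 2228 ± 379 (SD, n = 3) and 1537 ± 80.1 and a log2 difference of 0.48 ± 0.19 (SE). The second Acsl3 probe set, rc_AA900989_at, was below 0 on all 6 arrays, from -865 to -60.9, and gives no fold. The Acsl3 difference therefore rests on a single probe set, and the lowest high corn oil array, replicate 1, was only 1.13 times the highest low corn oil array.

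Acsl5 was higher in both probe sets, with a median of 0.27 against 0.73 for Acsl1. AB012933_at read 4784, 4854 and 6704 in rats fed much corn oil and 3830, 3884 and 4503 in the controls. The groups did not overlap, but high corn oil replicate 3 stood above the other high arrays, and the lowest high array was 1.06 times the highest low array. The log2 difference was 0.39 ± 0.18 (SE), and 0.24 without high corn oil replicate 3. AB012933_g_at, from the same sequence, read 7340, 6445 and 8315 against 6673, 6670 and 6455. Here the high arrays spread on both sides of the tightly placed low arrays, with a log2 difference of 0.15 ± 0.15 (SE). Leaving out high corn oil replicate 3 gave 0.06, and leaving out replicate 2 of that diet gave 0.24. The correlation of the pair over the 6 arrays was 0.81.

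Acsl4, the form that prefers arachidonic acid, had log2 differences of opposite sign in its probe sets in the fit. D85189_at read 7674, 8068 and 8034 in rats fed much corn oil and 4992, 6356 and 12613 in the controls. The high arrays lay close together inside the wide range of the low arrays, and low corn oil replicate 3 was the highest of the 6. The means of D85189_at were nearly equal, at 7925.5 ± 219 (SD, n = 3) and 7987 ± 4064, a ratio of 0.99. The log2 difference was 0.10 ± 0.32 (SE), and 0.48 without low corn oil replicate 3. With control 1 left out it was -0.17, and with control 2 left out 0.00. The probe set rc_AI236284_s_at read 11625, 10106 and 10441 under the high diet against 10371, 13061 and 13426 under the low diet. Its groups overlapped, with a log2 difference of -0.19 ± 0.15 (SE). It was -0.30 with control 1 left out and -0.12 with control 3 left out. The third, rc_AI045002_at, ran from -671 to 338 and was at or below 0 on 2 arrays.

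Acsl6 was below 0 on all 6 arrays in its only probe set, S56508_s_at, with values from -296 to -9.9. No level or diet difference can be given for it.

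**Figure D2:**
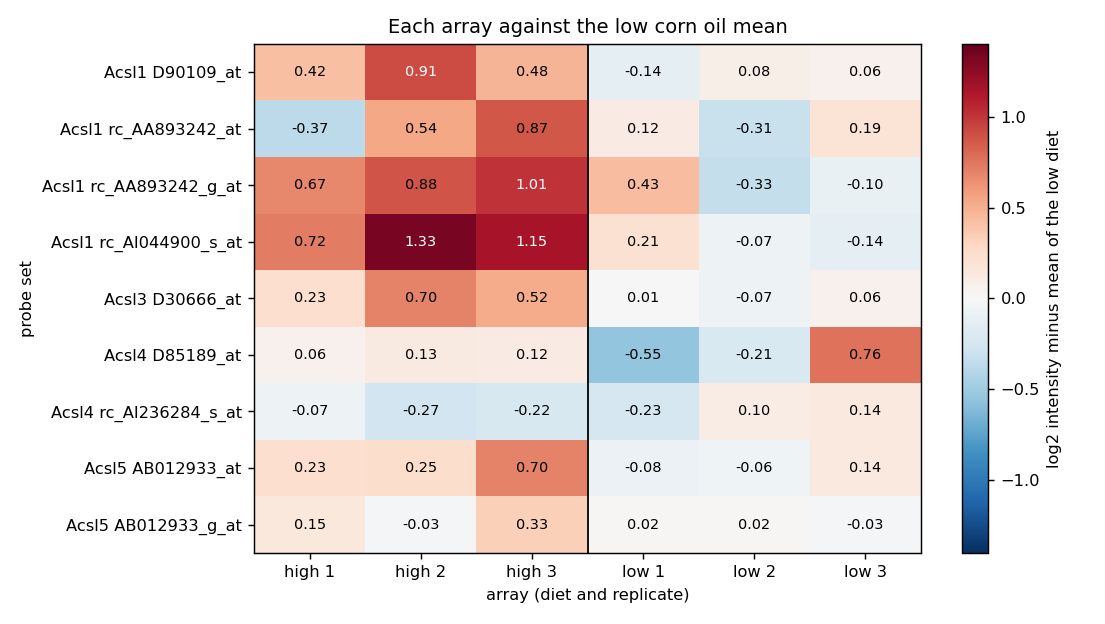
Log2 intensity of each array minus the mean of the 3 low corn oil arrays, for the 9 Acsl probe sets in the fit; columns are arrays, the black line separates the diets, and red is above and blue below the low mean. Acsl1 rc_AI044900_s_at reaches 1.33 in high corn oil replicate 2, and Acsl4 D85189_at reaches 0.76 in low corn oil replicate 3.

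Over the family, 8 of the 9 probe sets in the fit were higher by log2 difference and 1 was lower, with a median of 0.39. Acsl4 D85189_at, counted as higher, had a ratio of means of 0.99. In 5 of the 9 all high corn oil values lay above all low corn oil values, where 8.83% of the 5244 probe sets did so. In 0 of the 9 all high values lay below, against 6.71%, and 53.9% of all probe sets had a difference above 0. The members were chosen with this contrast known and the 9 passed a filter, so nothing is read from that count. Over all 5244 probe sets, limma called 0 at an adjusted p under 0.05 (0%), with 522 at an unadjusted p under 0.05, so no probe set, members included, passed the test.

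Across the whole array, high corn oil replicate 1 was closer to the controls than to its own group. Its Spearman correlations were 0.927 to 0.950 with the low arrays and 0.869 and 0.881 with the other high arrays. It was the lowest of the 3 high arrays in 7 of the 9 Acsl probe sets, including all 4 of Acsl1, and in 43.1% of all tested probe sets. Among tested probe sets with all high values above all low values, it was the lowest in 62.6%. Without it, all 4 Acsl1 probe sets and 6 of the 9 members had high values above all low values, against 26.6% of all probe sets. The signal of the bacterial spike-in controls, added to each hybridization, divided the arrays across diets. The higher signal was that of controls 1 and 2 and of high corn oil replicate 1, and the lower that of the remaining 3 arrays.

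Among the arrays with higher spike-in signal the Acsl1 median difference was 0.53, and among those with lower signal it was 0.84. For rc_AI044900_s_at the values were 0.65 and 1.38, and for rc_AA893242_at they were -0.28 and 0.51. Acsl3 stood at 0.26 and 0.54. Acsl4 D85189_at changed sign, at 0.44 and -0.64, and low corn oil replicate 3 was the only control in the lower set. With spike-in level as a block the Acsl1 median was 0.69, rc_AA893242_at was at 0.12 and Acsl4 D85189_at at -0.10. Each of these comparisons sets 1 array of a diet against 2 of the other, and the part of spike-in level in the differences was not tested.

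**Figure D3:**
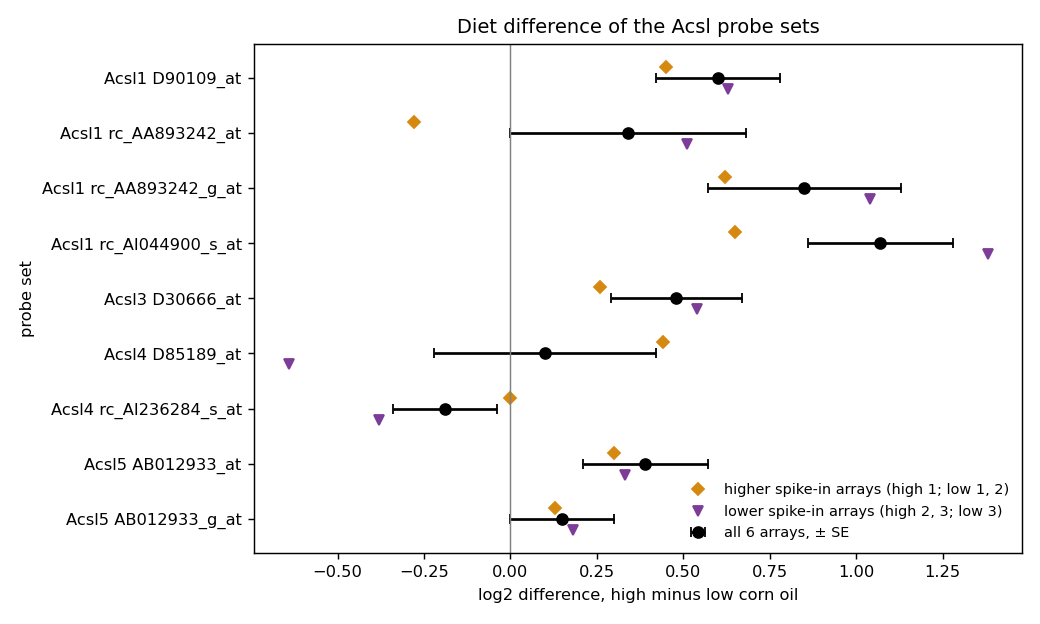
Log2 difference, high minus low corn oil, of the 9 Acsl probe sets in the fit; black points are all 6 arrays with the SE, and orange and purple points are the arrays with higher and lower spike-in signal. Both sets give a positive value for 3 of 4 Acsl1 probe sets, for Acsl3 and for both Acsl5 probe sets, and they have opposite signs for Acsl4 D85189_at and Acsl1 rc_AA893242_at.

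Among the 7 tested luminal markers, Pbsn and Msmb separated high corn oil replicate 1 from the other high arrays. Pbsn, the androgen-dependent secretory protein probasin, read 99574 in high corn oil replicate 1 but 19851 and 21926 in the other high arrays, against 78113 to 82039 under the low diet. A second tested Pbsn probe set differed less, at 61062, 32500 and 37102 against 49448 to 53756. Its log2 difference was -0.28 ± 0.24 (SE). Msmb, the secretory protein microseminoprotein, was likewise lower in high corn oil replicates 2 and 3, at 33652 and 39953, than in the other 4 arrays, at 66835 to 80234. These are the arrays in which the Acsl1 average was highest. The 7 luminal markers, all above the filter, were 2 higher and 5 lower, with summed intensities of 169008 to 291015 under the high and 263059 to 273058 under the low diet. The keratin gene Krt8 was at -0.04 ± 0.16 (SE) and the epithelial adhesion gene Epcam at 0.32 ± 0.14, and neither passed limma's test. The part of these shifts in the Acsl values was not tested.

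Most tested stromal markers had lower values under the high diet. By the probe set of highest mean, all 7 tested fibroblast markers were lower, with a median of -0.63, where 55.8% of all genes were higher. Their summed intensities were 57466 to 78434 against 89997 to 125568. Not every further probe set was lower, with Dcn rc_AI639233_s_at at 0.09 ± 0.31 (SE) and Col1a1 Z78279_at at 0.04 ± 0.35. The Col1a1 probe set of highest mean read 23846 in low corn oil replicate 1 but 9853 and 9474 in the other controls. All 6 tested macrophage markers were lower on the same basis, with a median of -0.63 and sums of 37524 to 60482 against 56606 to 62400.1. Of these, Cd14 was at only -0.07 ± 0.36 (SE) and Lyz2 at -0.08 ± 0.24. Another tested probe set of Cd14 was at 0.19 ± 0.36. Smooth muscle markers were lower in 7 of 8, with a median of -0.30 and sums of 133907 to 169279 against 163060.2 to 201446. Of 2 tested endothelial markers 1 was higher and 1 lower, with a median of 0.10. The 2 tested markers of basal epithelium were higher, with a median of 0.20. The sums of the macrophage and smooth muscle lists overlapped between the diets, and those of the fibroblast list did not. By limma none of these markers reached an adjusted p under 0.05, and their part in the Acsl values was not tested. Fat is rich in Acsl1, and of the adipocyte list 7 of 9 genes were measured and 4 entered the fit, all 4 lower with a median of -0.51. Plin1, the protein coat of fat droplets, was below 0 on all 6 arrays and the fatty acid binding gene Fabp4 on 5 of 6. Other genes of the list were above the filter: the leptin gene Lep read 3581 to 8007 over the 6 arrays in 1 probe set and was below 0 in its other 2, the adipsin gene Cfd read 298 to 1731 and the glucose transporter gene Slc2a4 389 to 1258. The part of fat in the Acsl values was not tested. The adipocyte sums were 5868 to 9508 under the high and 8657 to 10375 under the low diet. Of the skeletal muscle list, 5 of 9 genes entered the fit and all 5 were lower, with a median of -0.30.

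The genes that supply acyl-CoA synthetases with fatty acid or use their product did not move together. Of 136 listed genes 85 were measured and 61 entered the fit, 35 higher and 26 lower, with a median of 0.02 against 0.046 over all 3162 genes. Over all genes 55.8% were higher. When each array was divided by its median, 27 were higher and 34 lower. By limma 0 of the list genes had an adjusted p under 0.05 (0% of 3162 genes), and 8 had an unadjusted p under 0.05. In 6 of the 61 all high values lay above all low values, against 9.39% of all genes, and in 0 all lay below, against 6.33%. With high corn oil replicate 1 left out, 3 of the 61 passed limma's test, against 3.13% of all 3162 genes. They were chosen after their values were seen, and all were lower: the peroxisomal transporter Abcd3 (-1.79, adjusted p = 0.0208), the hydratase Echs1 (-0.68, adjusted p = 0.0477) and the lipid phosphatase Plpp3 (-1.13, adjusted p = 0.0431). In the same arrays a second probe set of Abcd3 was at -0.11 ± 0.19 (SE) and one of Plpp3 at -1.03 ± 0.61, and neither passed.

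Mitochondrial beta-oxidation, which takes up long-chain acyl-CoA through the carnitine shuttle, had 16 genes in the fit, 10 higher and 6 lower, with a median of 0.05. Cpt1a, the outer membrane carnitine palmitoyltransferase, was at 0.01 ± 0.24 (SE) and the muscle form Cpt1b at -0.20 ± 0.32. The inner membrane enzyme Cpt2 read 4946, 4001 and 4845 in rats fed much corn oil and 3573, 3532 and 3145 in the controls. Its groups did not overlap, and its log2 difference of 0.41 ± 0.15 (SE) did not pass limma's test (adjusted p = 0.480). The acyl-CoA dehydrogenases Acadvl, Acadl and Acadm, which take very long, long and medium chains, were at -0.13 ± 0.22, 0.22 ± 0.25 and -0.22 ± 0.18. The trifunctional protein subunits Hadha and Hadhb were at 0.34 ± 0.18 and 0.37 ± 0.23. Other tested probe sets of Hadha were at 0.06 ± 0.16 and 0.16 ± 0.22. Hadhb was at 0.13 without low corn oil replicate 1, and Hadha at 0.21 without high corn oil replicate 3. Without high corn oil replicate 1, 6 of the 16 genes were higher.

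Peroxisomal oxidation had 10 genes in the fit, 5 higher and 5 lower, with a median of 0.00. The bifunctional enzymes Ehhadh and Hsd17b4 were at 0.00 ± 0.30 (SE) and 0.19 ± 0.21. Hsd17b4 has further tested probe sets at -0.39, -0.17 and 0.20, so its sign depends on the probe set.

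Fatty acid synthesis, elongation and desaturation had 8 genes in the fit, 5 higher and 3 lower, with a median of 0.13. In 3 of the 8 all high values lay above all low values, as in 9.39% of all genes: the synthase Fasn and, singled out after their values were seen, the malic enzyme Me1 and the lipogenic regulator Srebf1. Fasn read 4026, 4250.1 and 6411 in rats fed much corn oil and 2717, 2752 and 3364 in the controls, and its other probe set also had separate groups. The other 3 tested probe sets of Me1 overlapped between the diets, at 0.12, 0.44 and 0.54. The log2 difference of Fasn was 0.68 ± 0.21 (SE; limma adjusted p = 0.462). Acly, the source of cytosolic acetyl-CoA, was at 0.26 ± 0.24, the desaturase Scd at 0.00 ± 0.36 and the elongase Elovl5 at -0.31 ± 0.18. Other tested probe sets of Acly were at 0.06 ± 0.21 and -0.08 ± 0.28, so its sign depends on the probe set. Scd was dim, at 280 to 621 over the 6 arrays. Another desaturase gene, Scd2, was at -0.09 ± 0.22, with further tested probe sets from -0.83 to 0.27.

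Glycerolipid genes, which place acyl groups on glycerol or release them, had 15 in the fit, 7 higher and 8 lower, with a median of -0.06. Gpam, the mitochondrial acyltransferase that opens triglyceride synthesis, was at -0.33 ± 0.39 (SE), and Dgat1, which closes it, at 0.11 ± 0.14. Another tested probe set of Gpam was at 0.28 ± 0.32, so its sign depends on the probe set. The lipases Lpl and Lipe were at 0.07 ± 0.23 and -0.58 ± 0.48. Plpp1, a lipid phosphatase singled out after its values were seen, read 34777, 19706 and 24827 against 12252, 16928 and 15850.2, a difference of 0.78 ± 0.23 that did not pass limma's test (adjusted p = 0.462). Of its other tested probe sets, rc_AA818593_at was at 0.82 ± 0.24 with separate groups. The groups of rc_AI230354_at overlapped, with a difference of 0.39 ± 0.29.

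Uptake and binding genes were mostly dim, with 3 of 9 measured genes in the fit. Dbi, the acyl-CoA binding protein, was at 0.07 ± 0.19 (SE) and the epidermal fatty acid binding gene Fabp5 at -0.49 ± 0.29. The transporter and synthetase gene Slc27a2 was left out by the filter, with all 3 high arrays below 0 and the low arrays at 258.5 to 489.6. The fatty acid translocase gene Cd36 ran from -678 to 334 over its probe sets. Among the other synthetases and thioesterases, the thioesterases Acot2 and Acot7 were at 0.28 ± 0.24 and -0.61 ± 0.27, while the further Acot7 probe sets were at -0.01 and -0.07. The medium-chain synthetase gene Acsm3 was too dim for the fit, at 174 to 265 under the high and 14.9 to 21.1 under the low diet.

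The regulators and PPAR targets had 7 genes in the fit, 6 higher and 1 lower, with a median of 0.14. Over all genes 55.8% were higher. The higher genes of this list were Rxrb, Rxrg, Hnf4a, Nr1h2, Nr1h3 and Ucp2. Hnf4a rests on 1 probe set, and its others were below 0 on all 6 arrays. Another tested probe set of Rxrg was at -0.27 ± 0.34 and one of Ucp2 at -0.22 ± 0.27. Ppard, the PPAR found in most tissues, was at -0.21 ± 0.24 (SE). Ppara, the receptor of fatty acid oxidation, and Pparg, that of fat cells, were below the filter, at 95 to 446 and -172 to 160.4. The PPAR target Pdk4, a brake on pyruvate dehydrogenase, was below 0 on all 6 arrays.

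**Figure D4:**
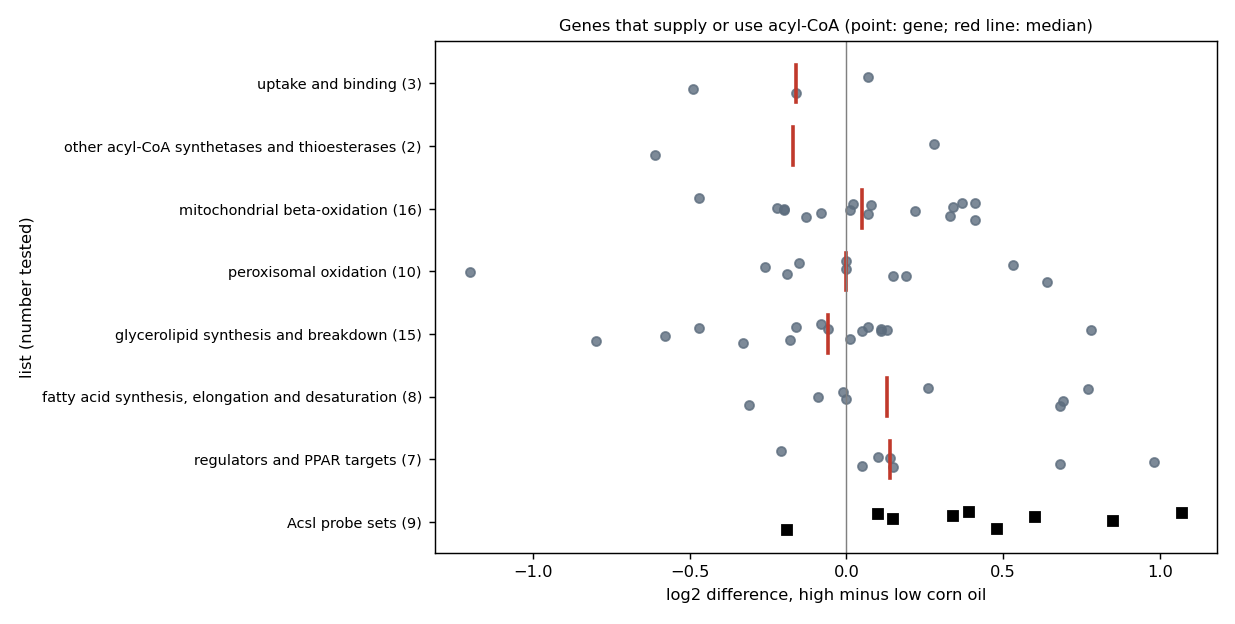
Log2 difference, high minus low corn oil, of the genes of 7 lists that supply or use acyl-CoA (points: genes; red line: list median) and of the 9 Acsl probe sets in the fit (squares); numbers tested are in parentheses. The list medians lie between -0.17 and 0.14, and the Acsl probe sets between -0.19 and 1.07.

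The genes with a pattern most like a member were found by Pearson correlation over the 6 arrays, among 4304 tested probe sets with 1 gene. For Acsl1 D90109_at they were Adora2a (0.986), Chrne (0.986), Htr1a (0.982), Drd3 (0.982) and Pitx3 (0.981). The first 4 encode receptors for adenosine, acetylcholine, serotonin and dopamine, and Pitx3 is a transcription factor of lens and dopamine neurons. Chrne read 452 to 624 under the high and 292 to 375 under the low diet. For Acsl3 the closest were Rplp1l3 (0.991), Ank3 (0.987) and Map1a (0.985), the last pair encoding cytoskeletal proteins. For Acsl4 rc_AI236284_s_at they were the lipoprotein receptor gene Vldlr (0.990), Rasa1 (0.981) and Auh (0.973). For Acsl5 AB012933_g_at they were the glycolytic gene Pgam1 (0.973), Tomm6 (0.967) and Nolc1 (0.958). With 6 arrays and 4304 probe sets, correlations of this size describe these arrays alone.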

How the data were processed

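The deposited values were intensity values, 1 per probe set and array, scaled by the authors before deposit. MAS5 is the only tool in the submitters' processing notes, and its settings and version are not given in the sources used here; values below 0 are unusual for it, so the exact algorithm is unknown. Gene names came from the platform annotation, updated by gene identifier (GRCr8 symbols). Of 8799 probe sets, 7006 had 1 gene and 308 had several, which were not named. Values below 0 were set to 0 and log2(value + 156.1) taken, the pseudocount being the median divided by 4. After removal of 59 control probe sets, those with a mean at or above the 40th percentile (343) were fitted with limma 3.58.1 in R 4.3.3 (intensity trend, no covariate, both directions), with Benjamini-Hochberg adjustment over 5244 probe sets. The threshold was 0.05, and the fit was tested on simulated data. A gene stood by its probe set with the highest mean. The members and lists were chosen with earlier results of these data known. Named genes were all members, fixed pathway genes (23 of 42 entered the fit) and the 5 or 3 genes most like a member. Alternatives changed the pseudocount, filter, scaling, transformation, trend, weights, blocks, the diet assigned to high corn oil replicate 3 and the arrays left in. Precision is limited by having 3 arrays of each diet.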

Additional observations from a re-analysis of the deposited data

How the results depend on the processing

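The Acsl1 median of 0.73 stayed positive in every alternative run, from 0.53 among the arrays with higher spike-in signal and with high replicate 3 treated as a control, to 0.92 with array weights. Probe sets called by limma numbered 9 with no filter and 0 to 214 when 1 array was left out (214 without high corn oil replicate 1), and pathway genes called 0 to 3. With 4 times the pseudocount rc_AA893242_g_at was at 0.54. With high replicate 3 treated as a control it was at 0.52, rc_AA893242_at at -0.13 (from 0.34), rc_AI044900_s_at at 0.74 and the Acsl5 probe sets at 0.06 and -0.02. Among arrays with higher spike-in signal, rc_AA893242_at was at -0.28, rc_AI044900_s_at at 0.65, Acsl3 at 0.26 and Acsl4 rc_AI236284_s_at at 0.00; among those with lower signal, rc_AI044900_s_at was at 1.38 and the Acsl4 probe sets at -0.64 and -0.38. With the spike-in block rc_AA893242_at was at 0.12 and Acsl4 D85189_at at -0.10. The cause was not tested. Pathway genes that changed sign were Ehhadh (0.00 with the pseudocount divided by 4, -0.05 quantile normalized, -0.04 divided by the median, -0.07 with replicate 3 as low), Scd (-0.04, -0.04, -0.13 with the spike-in block, -0.35 with replicate 3 as low), Cpt1a (-0.05 divided by the median, -0.17 with array weights), Acadvl (0.01 with the spike-in block), and, with replicate 3 as low, Dbi (-0.12), Lipe (0.03) and Acly (-0.08). Leaving out 1 array gave -0.16 to 0.21 for Ehhadh, -0.23 to 0.22 for Scd, -0.18 to 0.18 for Cpt1a, -0.06 to 0.18 for Dbi, -0.01 to 0.46 for Acadl, -0.36 to 0.04 for Cpt1b, -0.70 to 0.06 for Gpam and -0.07 to 0.16 for Lpl. Without a change of sign it gave -0.77 to -0.20 for Fabp5, -0.87 to -0.34 for Acot7, -0.41 to -0.03 for Ppard, 0.08 to 0.54 for Acly, -1.14 to -0.27 for Lipe, 0.13 to 0.52 for Hadhb, 0.21 to 0.50 for Hadha, -0.32 to -0.11 for Acadm, -0.28 to -0.03 for Acadvl, 0.13 to 0.43 for Acot2, 0.06 to 0.14 for Dgat1, 0.07 to 0.39 for Hsd17b4 and -0.48 to -0.20 for Elovl5. Same-numbered arrays were not treated as pairs in the main fit. Their deviations correlated at -0.05, -0.20 and 0.18, and those of differently numbered arrays at -0.16 to 0.27. With 3 arrays of each diet, these values cannot settle whether the numbers mark pairs. With the replicate block limma called 0, and the Acsl1 median was 0.73. Detection calls were not used here, so values near 0 limit Acsl6 and the dim probe sets of Acsl3 and Acsl4.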
